A study of Mus musculus with 4 samples.

Results

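The Dlk1-Meg3 domain is an imprinted gene cluster on mouse chromosome 12, described here through the protein-coding gene Dlk1 and the noncoding RNAs Meg3 (also called Gtl2), Rian and Mirg. Its members were all probe sets annotated to exactly 1 of these 4 symbols. This gave 19 of the array's 45101 probe sets, of which 2 belong to Dlk1, 11 to Meg3, 4 to Rian and 2 to Mirg. The 4 genes were selected on the signal differences between the knockout arrays and their controls that an earlier analysis of the same arrays gave, so those differences are a description and were not tested.

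Total RNA of mouse embryonic stem (ES) cells, cultured pluripotent cells derived from early embryos, was hybridised to 4 Affymetrix arrays. The array labelled Ring1B KO came from ES cells with a constitutive knockout of Ring1B (gene symbol Rnf2), and its control from wild-type ES cells. The array labelled double KO came from ES cells at day 4 of a conditional Ring1A/B knockout made with OHT, because the study could not keep constitutive double knockout cells, and its control from ES cells also labelled wild-type. Ring1A (gene symbol Ring1) and Ring1B are the RING-finger proteins of Polycomb repressive complex 1, a chromatin complex that marks histone H2A with ubiquitin. Each group was 1 array, so no difference below has a replicate check and no p-value was computed. Names of clones, strains and feeder conditions were not given in the sources used here.

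In the mouse Dlk1 is transcribed from the chromosome inherited from the father, while Meg3, Rian and Mirg are transcribed from the one inherited from the mother. A methylated control region between Dlk1 and Meg3 keeps the coding and the noncoding genes in their opposite states. Dlk1 encodes a membrane protein related to Notch ligands that restrains fat cell differentiation. Meg3 is a long noncoding RNA, Rian hosts many small nucleolar RNAs, and Mirg is a host of microRNAs. Loss of Meg3 and Rian transcription in mouse pluripotent cells is known to accompany poor contribution to chimaeras. The arrays do not tell the parental alleles apart.

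In RefSeq's GRCm38.p6 annotation all 4 genes lie on chromosome 12. Dlk1 spans chr12:109452485-109463336, Meg3 chr12:109540996-109571729, Rian chr12:109603945-109661716 and Mirg chr12:109734981-109749458. Dlk1 and Meg3 are 77.7 kb apart, Meg3 and Rian 32.2 kb, and Rian and Mirg 73.3 kb. The coding gene is 10.9 kb long and the noncoding genes are 30.7, 57.8 and 14.5 kb long. Between the start of Dlk1 and the end of Mirg the RefSeq table places 60 microRNA genes, of which 2 lie inside Meg3, 3 inside Rian, 10 inside Mirg and none inside Dlk1.

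The promoter windows of Dlk1 and Meg3 are shown because the coding gene and the noncoding RNAs of the domain behaved differently on these arrays. Each window runs on the plus strand from 250 bases before to 50 bases after an annotated start, from RefSeq on GRCm38.p6, and capitals mark CpG dinucleotides, the sites of mammalian DNA methylation. The Dlk1 window is chr12:109452573-109452872 and the Meg3 window, the upstream one of 2 listed for that gene, chr12:109540746-109541045. The Dlk1 window lies inside the annotated span of the gene, which begins at 109452485, so it is not the sequence upstream of that span.
Dlk1: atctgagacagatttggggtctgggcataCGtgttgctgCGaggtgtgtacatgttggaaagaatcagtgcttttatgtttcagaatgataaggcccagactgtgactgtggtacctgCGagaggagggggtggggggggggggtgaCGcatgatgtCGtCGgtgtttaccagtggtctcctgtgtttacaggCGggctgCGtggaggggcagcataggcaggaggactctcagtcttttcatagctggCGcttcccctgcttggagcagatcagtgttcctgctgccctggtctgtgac
Meg3: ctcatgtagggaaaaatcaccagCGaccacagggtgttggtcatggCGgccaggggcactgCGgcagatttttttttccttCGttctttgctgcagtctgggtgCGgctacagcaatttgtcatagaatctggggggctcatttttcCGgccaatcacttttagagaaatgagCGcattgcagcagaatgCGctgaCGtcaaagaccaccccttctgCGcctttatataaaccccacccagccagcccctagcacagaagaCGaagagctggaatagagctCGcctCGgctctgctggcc

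These windows hold 9 CpG for Dlk1 and 13 for Meg3, against a median of 7 over 32851 RefSeq promoter windows. The Rian window (chr12:109603695-109603994) holds 0 CpG and the Mirg window (chr12:109734731-109735030) 10. The letters TGACGTCA, the palindromic core of a cAMP response element, stand 57 bases before the Meg3 start, and TATAAA, the core of a TATA box, 25 bases before it. On either strand, TGACGTCA occurs in 1.79% of all windows and TATAAA in 13.6%. TGCCGC, the hexamer that the imprint-protecting protein ZFP57 binds when methylated, occurs in 11.6% of windows, and of the 4 genes in that of Meg3, on the minus strand. None of these motifs was found in the Dlk1, Rian or Mirg windows, and a match is letters only, not a bound site.

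The microRNAs within the noncoding genes show what small RNAs these transcripts carry, although the arrays did not measure the mature forms. The Mirg locus includes a group of related seeds, the bases 2 to 8 that pair with targets, written in capitals below. mmu-miR-453 and mmu-miR-496a-5p share their seed, and those of mmu-miR-409-5p and mmu-miR-410-5p match it at 6 of 7 positions. mmu-miR-770-5p from Meg3 and mmu-miR-370-3p from Rian have other seeds. All are read 5′ to 3′ from RefSeq.
mmu-miR-453: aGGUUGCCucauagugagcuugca
mmu-miR-496a-5p: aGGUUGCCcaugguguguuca
mmu-miR-409-5p: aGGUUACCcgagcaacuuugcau
mmu-miR-410-5p: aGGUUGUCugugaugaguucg
mmu-miR-770-5p: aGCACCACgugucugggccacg
mmu-miR-370-3p: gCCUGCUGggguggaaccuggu

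The deposited signals of the 4 arrays had 2%-trimmed means of 500.0 and 500.0 in the Ring1B pair, 147 on the array labelled double KO and 160.4 on its control. They were therefore brought to a common trimmed mean of 277 before arrays were compared, and signals below are on that scale. For differences, signals under 36.6 were raised to that floor, which 40% of the scaled signals of named probe sets do not pass. A fold with 1 of its sides at the floor is a minimum, written "at least". A log2 difference is always the first-named array minus the second. All 10 ES cell marker genes were above the floor on all 4 arrays. Within each pair the targeted genes did not tell the genotypes apart. At its brightest probe set, 1424873_at, Rnf2 read 2775 for Ring1B KO and 2579.7 for its control, and 1986 for double KO and 2182 for its control. Its other probe sets were also under 2-fold within each pair, in differing directions. Among them 1448043_x_at was 1.91-fold higher on Ring1B KO, 1448042_s_at differed by −0.21 on Ring1B KO and −0.40 on double KO, and 1448041_at was under the floor throughout. Ring1 read 163.5 for Ring1B KO and 146.2 for its control, and 55.6 for double KO and 44.7 for its control. It was thus lower on both arrays of the double KO pair. Between the control arrays its log2 difference was −1.71, lower on the double KO control, and the cause was not tested. Whether these probe sets lie in the deleted parts is not known here, so each array is called by what its label says.

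On the array labelled Ring1B KO the noncoding RNAs of the domain had lower signals than on its control, and the coding gene had a higher one. All 17 noncoding probe sets were lower, 11 of them by at least 2-fold, and none was higher. The measured Dlk1 probe set was 2.24-fold higher. Over all named probe sets that cleared the floor on either array, 2.51% were lower by 2-fold or more and 2.88% higher by as much. The median log2 difference was −1.63 over the 17 noncoding probe sets and −0.03 over all probe sets.

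Dlk1 was measured by the probe set 1449939_s_at. It read 162 on the array labelled Ring1B KO, against 72.0 on its control. It read 46.2 on the array labelled double KO, against 547 on its control. The double KO control was thus highest and the double KO lowest, close to the floor, with the Ring1B pair in between. The other Dlk1 probe set, 1442724_at, was under the floor on all 4 arrays, with at most 31.0 on the Ring1B control, and gives no difference. All values of Dlk1 therefore rest on a single probe set whose suffix marks it as able to match several transcripts. In the Ring1B comparison its log2 difference was 1.17, and with a floor at the 60th percentile of signals it shrank to 0.35.

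**Figure D1:**
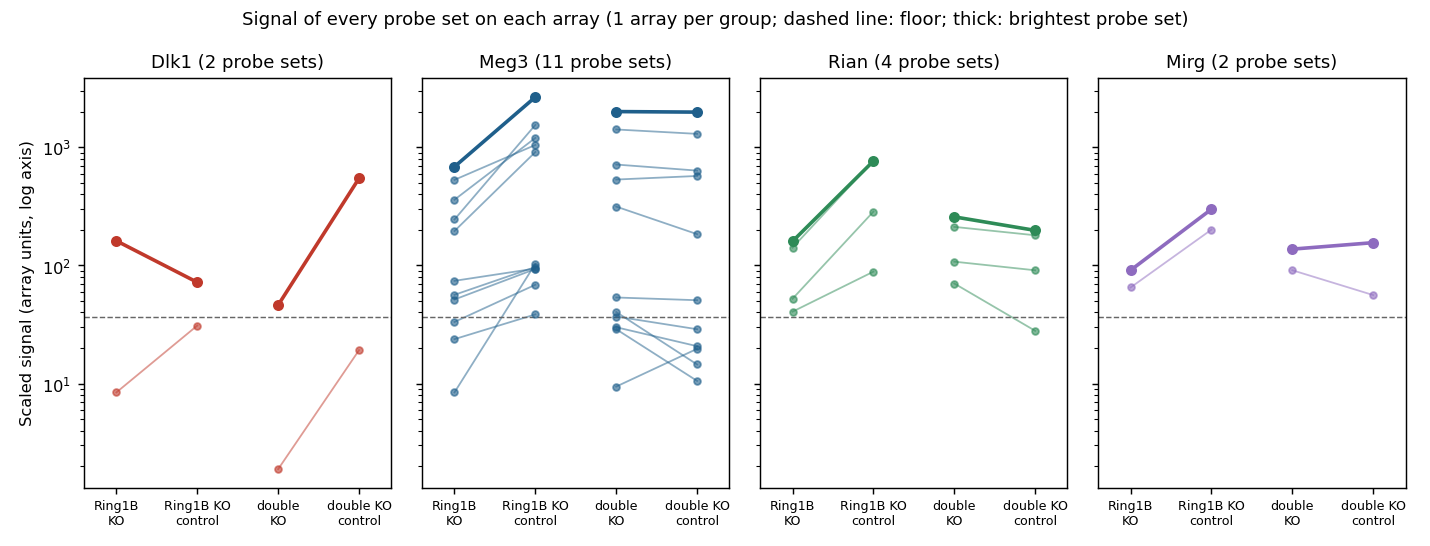
Scaled signal (log axis) of every Dlk1, Meg3, Rian and Mirg probe set on the 4 arrays, 1 array per group, with lines joining each knockout array to its own control, the brightest probe set of each gene thick and the floor of 36.6 dashed. All noncoding probe sets slope upwards from Ring1B KO to its control. In the double KO pair the brightest Meg3 line is nearly level and several dimmer noncoding lines slope downwards, while Dlk1 reads 46.2 on double KO and 547 on its control.

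Meg3, which had the brightest probe sets of the domain, was lower on the array labelled Ring1B KO at all 11 of its probe sets and at least 2-fold lower at 5. Its brightest probe set (1439380_x_at) read 686 on the array labelled Ring1B KO, against 2667 on its control, 3.89-fold lower. The largest Meg3 difference was at 1452183_a_at, with 245 on Ring1B KO against 1549 on its control, 6.32-fold lower. The probe set 1426758_s_at was designed on the same deposited sequence as 1452183_a_at, so these are not independent, and it read 196 on Ring1B KO against 913 on its control, 4.66-fold lower. At 1452905_at the signals were 360.2 on Ring1B KO and 1202 on its control, 3.34-fold lower. At 1436713_s_at they were 531 on Ring1B KO and 1048 on its control, a log2 difference of −0.98 that falls just short of 2-fold. The other 6 Meg3 probe sets were dim, from 8.42 to 74.1 on Ring1B KO and from 38.5 to 103 on its control. Of these dim ones 1452906_at was at least 2.82-fold lower and the rest differed by −0.07 to −0.91, bounds included. The probe sets 1428764_at and 1428765_at share a deposited sequence with 1452905_at, and 1429256_at shares one with 1429257_at. The 11 Meg3 probe sets are thus not 11 independent measurements. The size of the Meg3 difference thus varied widely between probe sets of the gene, while its direction did not.

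Rian was at least 2-fold lower on the array labelled Ring1B KO at all 4 of its probe sets. At the brightest (1452899_at) it read 160.2 on Ring1B KO, against 765 on its control, 4.78-fold lower. The probe sets 1427580_a_at (141 on Ring1B KO, 773 on its control) and 1428055_at (52.3 on Ring1B KO, 285 on its control) gave the same log2 difference of −2.45. The dimmest, 1440001_at, read 40.6 on Ring1B KO and 88.6 on its control, a difference of −1.13. Only 18 of the 22603 probe sets compared were as far down as Rian at 1427580_a_at.

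Mirg, the microRNA host at the far end of the domain, was lower at both of its probe sets. It read 91.1 on Ring1B KO against 299.6 on its control at 1457030_at, 3.29-fold lower. At 1440097_at it read 65.1 on Ring1B KO against 201 on its control, 3.09-fold lower. The 2 Mirg probe sets gave log2 differences of −1.72 and −1.63.

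The picture was different on the array labelled double KO. Dlk1 was 11.8-fold lower than on its control, a log2 difference of −3.57. That difference was −2.11 with a floor at the 60th percentile and −3.08 with the values as deposited. Of 22284 probe sets 7 were as far down, itself included, a rank that is description only because the genes were selected on such differences. None of the 17 noncoding probe sets was 2-fold apart in either direction, 3 of them being under the floor on both arrays. Of all probe sets, 8.37% were lower by 2-fold or more and 2.88% higher by as much. With only 14 noncoding probe sets above the floor, their count is near these shares and is no result about the noncoding RNAs. Of the member probe sets, 1 was at least 2-fold higher with scaling to a common median or quantile normalization. With a floor at the 20th percentile 3 were. The calls over all probe sets split into 74.4% lower with the scaling used, 56.8% lower with scaling to a common median and 61.9% lower with quantile normalization.

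Meg3 read 2009 on the array labelled double KO and 1988 on its control at its brightest probe set, a log2 difference of 0.02. At 1452183_a_at it read 1417 on double KO and 1301 on its control, and at 1452905_at 534 on double KO and 572 on its control. The largest measured Meg3 difference was 0.78, at 1436713_s_at, with 315 on double KO and 184 on its control. Of the 5 bright Meg3 probe sets this one differed most, and the others lay between −0.10 and 0.17. The sign of the difference at the brightest probe set turned to −0.11 with the values as deposited.

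Rian was slightly higher on the array labelled double KO at all 4 probe sets, by 0.24 to 0.94 on the log2 scale. The brightest read 258 on double KO and 198 on its control. The largest difference is a bound, at 1428055_at, which read 70.3 on double KO and was under the floor on its control. That bound passed 2-fold under 3 alternatives, at 1.16 with scaling to a common median, 1.18 with quantile normalization and 1.33 with a floor at the 20th percentile. The Mirg probe sets went opposite ways, with 137 on double KO against 156 on its control at 1457030_at and 91.1 on double KO against 56.1 on its control at 1440097_at.

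**Figure D2:**
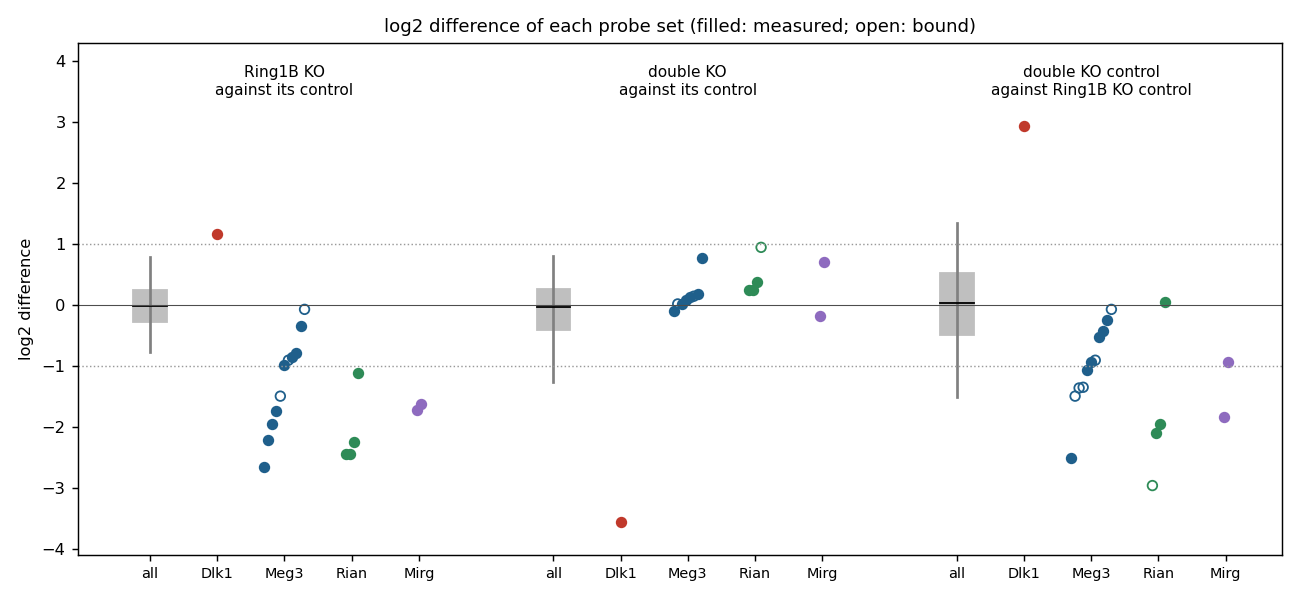
log2 difference of each member probe set in 3 comparisons, with filled points measured on both arrays and open points bounds. Grey boxes span the middle 50% of all named probe sets with the median as a black line, grey lines the 5th to 95th percentile, and dotted lines mark 2-fold. Dlk1 lies at 1.17, −3.57 and 2.93, above every noncoding probe set in the Ring1B and the control comparison and below every one in the double KO comparison.

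The control arrays, both labelled wild-type, differed in the same sense as Ring1B KO and its control did. Whether the control of the conditional line carries other alleles, such as floxed ones, is not given in the sources used here. Dlk1 was 7.60-fold higher on the double KO control, with 547 against 72.0 on the Ring1B control. This log2 difference of 2.93 was 2.11 with a floor at the 60th percentile and 1.29 with the values as deposited. Of the 17 noncoding probe sets 9 were at least 2-fold lower on the double KO control and 16 were lower at all. Among all probe sets, 11.4% were lower by 2-fold or more and 10.1% higher by as much in this comparison. Of all these calls 52.9% were lower ones, against 38.8% with scaling to a common median and 99.2% with the values as deposited. The median noncoding difference was −1.07, against 0.02 for all probe sets. The Ring1B comparison and this one share the Ring1B control array, which had the highest signal of the 4 arrays at 16 of the 17 noncoding probe sets.

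Between the control arrays the Meg3 probe sets did not move alike. At 1452183_a_at, 1439380_x_at and 1426758_s_at the differences were −0.25, −0.42 and −0.52, all under 2-fold. At 1452905_at the difference was −1.07 and at 1436713_s_at −2.51, with 184 on the double KO control and 1048 on the Ring1B control. Rian differed by −1.95 and −2.10 at its bright probe sets 1452899_at and 1427580_a_at and was at least 7.80-fold lower at 1428055_at, while 1440001_at differed by 0.04. Mirg differed by −0.94 at 1457030_at and by −1.84 at 1440097_at. Noncoding signal was thus lower on the double KO control mainly at Rian, Mirg and part of the Meg3 probe sets.

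Set against the control of the other pair, the array labelled Ring1B KO gave different values. Dlk1 turned to −1.76, since the double KO control had the highest Dlk1 signal. The Meg3 probe sets split, with −2.41 at 1452183_a_at and −1.54 at the brightest but 1.53 at 1436713_s_at. Rian shrank to −0.31 and Mirg to −0.78 at their brightest probe sets. In all, 5 of the 15 member probe sets above the floor were lower by 2-fold or more and 2 higher by as much, where 9.68% and 10.7% of all probe sets were. Among the noncoding probe sets, Ring1B KO was at least 2-fold lower than both controls at 4, which were 1452183_a_at, 1439380_x_at and 1426758_s_at of Meg3 and 1440001_at of Rian. Of these, 1452183_a_at and 1426758_s_at share a deposited sequence. The share of all probe sets lower than both controls was not computed, so this count is no result about the noncoding RNAs. Against the Ring1B control the array labelled double KO had Dlk1 lower by a log2 difference of −0.64, under 2-fold, Rian at −1.57, Mirg at −1.12 and Meg3 at −0.41. Of the 18 member probe sets above the floor 10 were at least 2-fold lower there and none higher, where 12.8% and 6.95% of all probe sets were.

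Coding and noncoding genes were also compared probe set by probe set, as the log2 difference of Dlk1 minus that of each noncoding probe set. In the Ring1B comparison Dlk1 lay above all 17, by 1.24 to 3.83. In the double KO comparison it lay below all 14 noncoding probe sets above the floor, by −4.51 to −3.38. Between the control arrays it lay above all 17, by 2.89 to 5.89. Taking the brightest probe set of each gene, Dlk1 minus the noncoding median was 3.13 for Ring1B KO, −3.58 for double KO and 3.87 for the control arrays. With the other control as denominator these became −0.98 for Ring1B KO and 0.48 for double KO. The separation of coding from noncoding signal therefore depended on the control used.

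**Figure D3:**
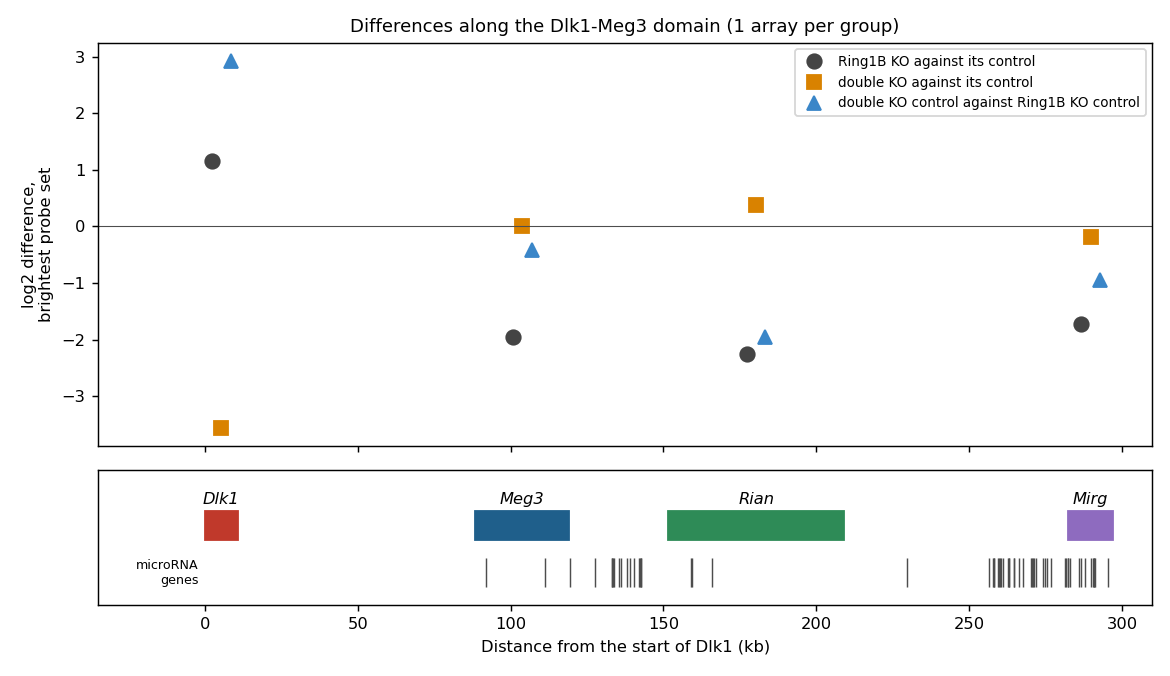
Upper panel: log2 difference at the brightest probe set of each gene, placed at the gene's position as distance from the start of Dlk1 (kb), for 3 comparisons. Lower panel: the 4 genes to scale and the starts of the 60 microRNA genes. Dlk1, at the left end, stands at 1.17, −3.57 and 2.93, and the noncoding genes between −2.26 and 0.38.

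Genes beside the domain were under 2-fold in the 3 comparisons, though not all differed less than the noncoding RNAs. Of 13 listed genes of the domain and its flanks 9 had a probe set named on the array, and Begain, Rtl1 and Dio3 were not analysed here. Of these, 7 were above the floor in each of the 3 comparisons and none was 2-fold apart, against 6.15%, 13.0% and 20.3% of all genes. With only 7 genes this count is no result about the neighbours. Yy1, which encodes a zinc finger transcription factor, read 3502 on Ring1B KO and 3038 on its control, and 2260.0 on double KO and 2573 on its control. Ppp2r5c, a subunit gene of protein phosphatase 2A, read 1950 on Ring1B KO and 2726 on its control, a difference of −0.48. Wars, a tryptophanyl-tRNA synthetase gene, was higher by 0.47 on Ring1B KO. Slc25a47, a mitochondrial carrier gene, was under the floor on the Ring1B control and on double KO, so its differences of 0.75 on Ring1B KO and −0.90 on double KO are bounds. The other neighbours, Wdr25, Slc25a29 and the dynein heavy chain gene Dync1h1, lay between −0.57 and 0.12 in the knockout comparisons, where the −0.39 of Slc25a29 on double KO is also a bound. Between the control arrays Dync1h1 differed by 0.97, Slc25a29 by −0.73, Wars by 0.66, Wdr25 by −0.65, Ppp2r5c by 0.32 and Yy1 by −0.24. Slc25a47 differed by 0.90 there, a bound. At their brightest probe sets Meg3 differed by −0.42, Mirg by −0.94 and Rian by −1.95 in that comparison. Dio3os and Degs2 were under the floor on all 4 arrays.

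Of 19 genes on the array for factors that set or keep imprints, 1 was at least 2-fold lower and none higher on Ring1B KO, where the median was −0.04. That count is near the 6.15% of all genes that were 2-fold apart. That gene was Dppa3, also called Stella, which protects imprints in the early embryo, with 358 on Ring1B KO and 1894 on its control. Dnmt3l, a cofactor of DNA methylation, had the largest difference upward at 0.97, and Tet1, an enzyme that oxidises methylated cytosine, differed by −0.71. On double KO the de novo DNA methyltransferase gene Dnmt3a was the one gene at least 2-fold higher, with 2030 on double KO against 559 on its control, and none was lower. Tet2, another enzyme that oxidises methylated cytosine, differed by 0.87 and Uhrf1, which brings Dnmt1 to replicated DNA, by 0.81. Zfp57 differed by −0.05 on Ring1B KO and by −0.48 on double KO, and Trim28, its partner, by −0.04 and 0.41. Of all genes on double KO, 9.99% were lower by 2-fold or more and 3.02% higher by as much, so this count too is no result about these factors.

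The summed signals of fibroblast, endoderm and mesoderm markers differed in the same direction as Dlk1 within each pair. That of neural markers, mostly Neurod1 on the Ring1B control, did not in the Ring1B pair. That of ES cell markers differed in the opposite direction in both pairs. The 17 fibroblast markers, which would show a feeder layer, summed to 19116 on Ring1B KO and 12458 on its control, and 1835 on double KO and 6596 on its control. On Ring1B KO 1 of the 16 above the floor was at least 2-fold higher, a count near the 3.54% of all genes. All 16 were higher at all, with a median log2 difference of 0.51, against −0.02 for all genes. On double KO 15 of 17 were at least 2-fold lower, where 9.99% of all genes were, with Col6a2, Lum, Pdgfra and Pdgfrb under the floor. Col1a1 read 841 on Ring1B KO and 595 on its control, and 96.2 on double KO and 324 on its control. The 15 endoderm markers summed to 26213 on Ring1B KO and 8706 on its control, with 11 of 14 at least 2-fold higher, again beside 3.54%. They summed to 5653 on double KO and 13985 on its control, with 8 of 11 at least 2-fold lower, again beside 9.99%, and Gata6, Sox17, Sox7, Afp, Ttr, Cubn, Hnf4a and Foxa2 under the floor on double KO. The 7 neural markers summed to 944 on Ring1B KO and 1608 on its control, and 511 on double KO and 556 on its control. Most of the Ring1B control sum was Neurod1, with 1004 there and 137 on Ring1B KO. Of the 7, 5 were lower and 2 higher on Ring1B KO, and Zic1 was at least 6.03-fold higher. Across the pairs the order differed for fibroblast and endoderm sums, since Dlk1 was highest on the double KO control and those sums on Ring1B KO. The 7 mesoderm markers followed the order of Dlk1, with sums of 787 on the double KO control and 478 on Ring1B KO. They summed to 335 on the Ring1B control and 239 on double KO. Eomes alone read 453 on the double KO control, and 5 of the 7 were under the floor on double KO. The 10 ES cell markers summed to 49425 on Ring1B KO and 58895.5 on its control, and 63283 on double KO and 47187.5 on its control. In these bulk samples fewer cells of a type and less RNA per cell cannot be told apart. The part of fibroblast, endoderm or mesoderm RNA in the Dlk1, Meg3, Rian and Mirg values was not tested.

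**Figure D4:**
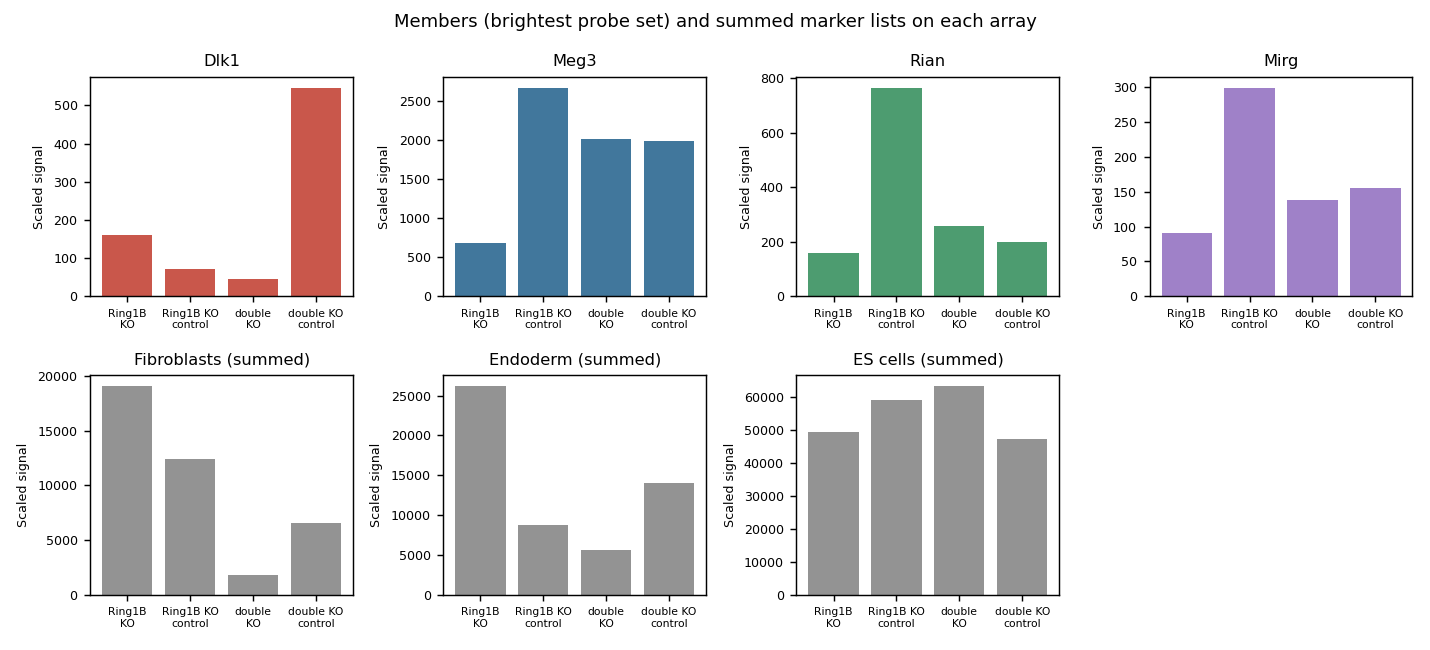
Bars give, on each of the 4 arrays, the scaled signal at the brightest probe set of Dlk1, Meg3, Rian and Mirg and the summed signal of the fibroblast, endoderm and ES cell marker lists. Dlk1 is highest on the double KO control (547), the noncoding RNAs on the Ring1B control, and the fibroblast sum on Ring1B KO (19116).

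The genes most like Dlk1 and Meg3 over the 4 arrays were named by the distance between log2 signals centred on each gene's own mean, among 10026 genes. Nearest to Dlk1 were Tinagl1 at a distance of 0.34, Morc4 at 0.35, Tdrkh at 0.39, Hmga2 at 0.51 and Cxcl14 at 0.59. Hmga2, an architectural chromatin protein gene of embryonic cells, read 1555 on Ring1B KO and 707 on its control, and 569.7 on double KO and 4080 on its control. Nearest to Meg3 were Etfbkmt at 0.45, Pik3ip1 at 0.45, Bhlhe40 at 0.49, Fblim1 at 0.497 and Rnf157 at 0.499. Among the members, Mirg ranked 65th in likeness to Meg3 with a distance of 0.77 and Rian 1332nd with 1.24, while Dlk1 ranked 9934th with 3.36. With 4 arrays of 1 sample each, many genes share a pattern, and these distances are descriptive.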

How the data were processed

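The deposited values are linear signal intensities that the authors made with MAS5, per the submitters' processing notes, with settings not given in the sources used here. MAS5 summarises perfect-match and mismatch probes into 1 signal per probe set. Trizol extraction, column clean-up and a biotin labelling kit with a single amplification cycle were used, per the labels' protocols. The number of arrays, 1 per group, limits the precision.

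Gene names came from the platform annotation: 34945 had 1 gene symbol, 932 several and 9160 none here, beside 64 manufacturer's controls that were left out. Each array was multiplied to a common 2%-trimmed mean (factors 0.554, 0.554, 1.89 and 1.73 for Ring1B KO, the Ring1B control, double KO and the double KO control), floored at 36.6 and log2-transformed in Python 3.11.15 with pandas 2.3.3. The brightest probe set, by mean log2 signal, stood for a gene (18193 genes). Differences of 2-fold or more were counted, and no test was run. The difference step was tested on simulated data. Members, gene lists, marker lists and the naming rule (all member probe sets, fixed lists of domain neighbours, imprint factors, Notch genes and cell type markers, the 5 genes nearest in pattern to Dlk1 and to Meg3) were chosen with earlier results of these data known. Alternatives were other scalings, floors, probe set choices and the other control array.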

Additional observations from a re-analysis of the deposited data

Results flagged for a closer look

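Dlk1, Meg3 and Rian stood out because, with the scaling used, their differences had opposite signs in the 2 knockout comparisons, and the difference between these comparisons was not tested with 1 array per group. Dlk1 was higher by 1.17 on the log2 scale on Ring1B KO and differed by −3.57 on double KO, and both sizes exceed 2-fold. Meg3 differed by −1.96 on Ring1B KO and by 0.0153 on double KO, the second so close to 0 that it turned to −0.11 with the values as deposited and to −0.03 with quantile normalization, so Meg3 has no settled sign on double KO. Rian differed by −2.26 on Ring1B KO and by 0.38 on double KO.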

How the results depend on the processing

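No paired analysis was possible because each group has 1 array, and no array could be left out. The largest dependence was on the control, and its cause was not tested. With the other control array as denominator, Ring1B KO had 5 member probe sets at least 2-fold lower and 2 higher in place of 11 and 1, Dlk1 turned to −1.76, Rian at 1428055_at to 0.51, Mirg at 1440097_at to 0.21, and Dlk1 minus noncoding to −0.98. Double KO then had 10 lower in place of 1, and its Dlk1 minus noncoding turned to 0.48. Without probe sets ending in _s_at, _x_at or _a_at, Dlk1 kept only the probe set under the floor. The Ring1B counts became 7 lower and 0 higher, the double KO count 0 lower, the control count 0 higher, and double KO Dlk1 minus noncoding 0.10, a value with no Dlk1 measurement behind it.

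With a floor at the 60th percentile the Ring1B count was 0 higher and the control count 5 lower, since fewer probe sets clear it, and at the 20th percentile double KO had 3 higher in place of 0. Scaling to a common median and quantile normalization each gave double KO 1 higher. With the values as deposited 16 probe sets were lower between the controls in place of 9, beside a median over probe sets above the floor on both arrays of −1.51 in place of 0.05. Scaling to a common median moved that median to 0.16 for double KO and 0.20 for the controls. Across settings within the own pair, the Ring1B difference of Rian lay between −2.32 and −2.07, of Meg3 between −1.96 and −1.28 and of Mirg between −1.78 and −1.24. Saturation and signal over background could not be assessed from the deposited values.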

Other observations

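Dlk1 is related to Notch ligands, and 25 Notch pathway genes were examined beside it. On Ring1B KO none of the 22 genes above the floor was 2-fold apart, with a median of −0.03, where 6.15% of all genes were. On double KO 4 of 20 were at least 2-fold lower and 1 higher, where 9.99% and 3.02% of all genes were. Lower were the glycosyltransferase gene Lfng (at least 2.22-fold), the ligand gene Jag2 (107 on double KO, 229 on its control), the protease gene Adam10 (222 on double KO, 469.8 on its control) and Nrarp, which encodes a feedback regulator (61.9 on double KO, 126 on its control). The receptor gene Notch4 was at least 2.02-fold higher. Between the control arrays 3 of 22 were at least 2-fold higher and 2 lower on the double KO control, where 20.3% of all genes were 2-fold apart.

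Mesoderm markers summed to 478 on Ring1B KO and 335 on its control, and 239 on double KO and 787 on its control. Of the neural markers, Neurod1 read 137 on Ring1B KO and 1004 on its control.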
